A study of Rattus norvegicus with 9 samples.

Results

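Cartilage is a tissue of chondrocytes in a matrix of type II collagen fibrils and giant proteoglycan aggregates, and in a long bone it remains at the joint surface and, in rats, in a growth plate that persists long after sexual maturity. The 10 genes described here are Sox9 and 9 genes for cartilage matrix and chondrocyte proteins: Acan, Hapln1, Comp, Matn1, Matn3, Epyc, Cnmd, Ucma and Prg4. They were selected by symbol among the 23026 genes of the deposited tables, and all 10 were present and passed the filter on low counts.

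RNA came from the bone of female Sprague–Dawley rats, which the study bought at 8 weeks of age, in 3 groups of 3 libraries. Sham rats had fat beside the ovary removed and kept their ovaries, OVX rats lost both ovaries, and OVX-AS-IV-High rats lost both ovaries and received astragaloside IV (AS-IV), a saponin of Astragalus membranaceus, at 80 mg/kg. Gavage began 6 weeks after surgery and lasted 8 weeks, and the vehicle was sodium carboxymethyl cellulose (CMC-Na). The labels give 1% CMC-Na for every OVX library but 1%, 2% and 3% for Sham replicates 1, 2 and 3, whereas the methods give 1% for all rats. According to the methods a whole femur was frozen for molecular work, and no source used here says which part of the bone entered each library.

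Sox9 is the transcription factor that commits cells to the chondrocyte lineage and switches on the matrix genes. Acan encodes aggrecan, the large proteoglycan that holds water in cartilage, and Hapln1 encodes the link protein that fixes aggrecan to hyaluronan. Comp, Matn1 and Matn3 encode multimeric adaptor proteins that connect collagen fibrils with other matrix molecules. Epyc encodes a small leucine-rich proteoglycan of growth plate cartilage, Cnmd a chondrocyte membrane protein whose released part keeps vessels out of cartilage, and Ucma a small secreted protein of growth plate chondrocytes. Prg4 encodes lubricin, the lubricant made by the surface zone of articular cartilage and by synovium.

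Promoter sequences were taken from the RefSeq table of assembly GRCr8, which held 7 of the 10 genes. The 250 bases before the gene start are shown for Acan and Hapln1, whose levels were lowest in the same libraries, and for Prg4, whose levels were not. Capitals mark ACAAAG, a form of the SOX recognition sequence, and TATAA, each searched on both strands. The windows are chr1:142390701-142390950 on the plus strand for Acan, chr2:22366717-22366966 on the plus strand for Hapln1 and chr13:65054226-65054475 on the minus strand for Prg4.
Acan: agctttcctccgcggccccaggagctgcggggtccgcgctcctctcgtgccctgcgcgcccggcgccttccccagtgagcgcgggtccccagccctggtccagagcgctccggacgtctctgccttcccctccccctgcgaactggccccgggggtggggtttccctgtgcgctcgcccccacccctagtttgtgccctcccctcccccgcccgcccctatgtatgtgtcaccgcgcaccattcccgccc
Hapln1: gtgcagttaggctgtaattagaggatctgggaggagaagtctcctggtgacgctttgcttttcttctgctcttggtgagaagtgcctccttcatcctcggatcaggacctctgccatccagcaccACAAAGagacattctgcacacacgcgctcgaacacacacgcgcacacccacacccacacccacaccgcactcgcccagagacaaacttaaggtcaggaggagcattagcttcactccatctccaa
Prg4: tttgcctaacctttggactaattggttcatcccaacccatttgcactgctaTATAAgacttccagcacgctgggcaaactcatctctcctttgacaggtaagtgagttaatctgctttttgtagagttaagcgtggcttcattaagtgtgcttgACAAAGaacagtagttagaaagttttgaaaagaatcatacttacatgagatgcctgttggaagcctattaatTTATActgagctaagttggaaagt

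G and C made up 73.6% of the Acan window, 54.0% of the Hapln1 window and 38.8% of the Prg4 window, against a median of 51.2% over the 33469 promoters of the table. The Acan window held 24 CG dinucleotides and the Prg4 window 2, where the median promoter held 5. AACAAT, the core of the SOX motif, was in 0 of the 7 windows and in 10.3% of all promoters. ACAAAG was in 2 of the 7 windows, those of Hapln1 and Prg4, and in 16.3% of all promoters. TATAA was in 2 of the 7, those of Prg4 and Epyc, and in 24.0% of all promoters. These are matches of letters and not evidence of binding.

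Levels are given as FPKM, fragments scaled to gene length and library size, which allow a comparison between genes. Over the 9 libraries, Prg4 (119 ± 105 FPKM, SD, n = 9) and Comp (118 ± 34.9 FPKM) had the highest mean levels. Acan (23.5 ± 10.6), Hapln1 (22.4 ± 13.1), Ucma (21.8 ± 10.9) and Cnmd (20.5 ± 13.1) followed at nearly the same mean FPKM. Matn3 (5.25 ± 3.92), Sox9 (1.68 ± 0.606), Matn1 (0.400 ± 0.478) and Epyc (0.317 ± 0.322) were lower.

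Some steps in this order held in each library, and others did not. Comp was above Acan in 9 of 9 libraries, Cnmd above Matn3 in 9 and Sox9 above Matn1 in 9. Prg4 exceeded Comp in only 2 of the 9 libraries, so its higher mean rests on Sham replicate 1 and OVX-AS-IV-High replicate 1. Acan, Hapln1, Ucma and Cnmd changed places from library to library and could not be ranked. Matn1 and Epyc could not be ranked either, with Matn1 above Epyc in 4 of 9 libraries.

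The summed level of 8 markers of osteoblasts and osteocytes, which make the labelled tissue, ranged from 1196 to 4401 FPKM over the 9 libraries. Cartilage was present beside bone in each. Col2a1, the main collagen of cartilage, lay between 36.2 and 453 FPKM, and Col10a1, the collagen of hypertrophic chondrocytes, between 3.04 and 53.9 FPKM. Markers of other tissues were also present in each library. The summed FPKM of 7 measured skeletal muscle markers ranged from 619 to 3767 in Sham, from 605 to 1250 in OVX and from 216 to 1884 with AS-IV, and 0 of these markers were at or under 3 counts throughout. The sum of 5 tendon and ligament markers ranged from 41.8 to 77.8 FPKM in Sham, from 37.1 to 108 in OVX and from 34.8 to 52.6 with AS-IV. Total counts per library lay between 34874880 and 37298250, so depth differed little.

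**Figure D1:**
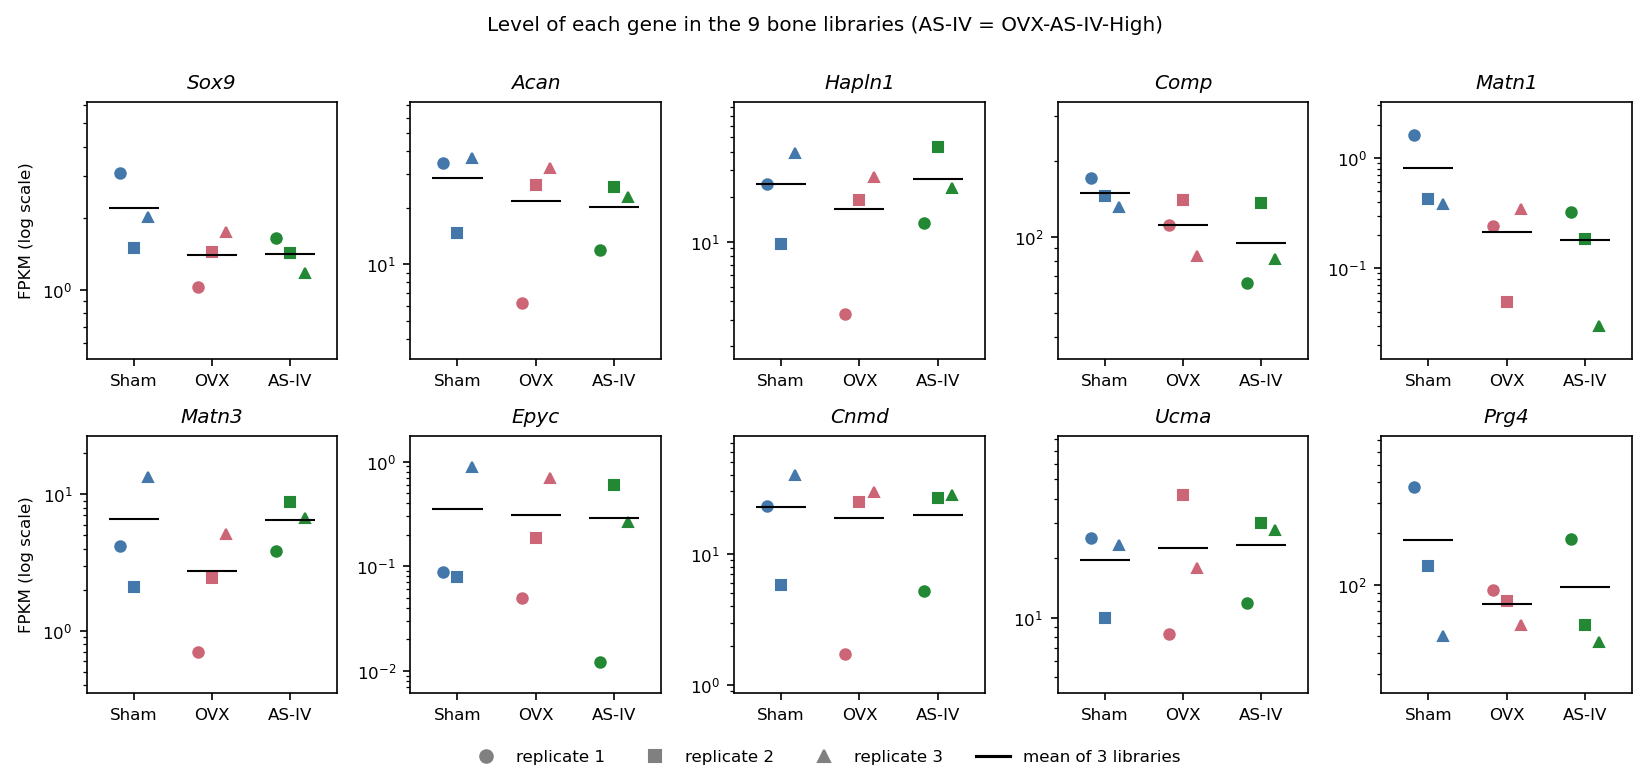
FPKM on a log axis for each of the 10 genes in the libraries of Sham, of OVX and of OVX-AS-IV-High (AS-IV), with a symbol for each replicate and a line at the mean of the 3 libraries. Acan, Hapln1, Cnmd and Ucma are low in Sham replicate 2, OVX replicate 1 and OVX-AS-IV-High replicate 1, whereas Prg4 peaks at 372 FPKM in Sham replicate 1.

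To assess the effect of ovariectomy, OVX was compared with Sham by edgeR's quasi-likelihood test on the counts, with all 9 libraries in a single fit over 16874 genes. A differentially expressed gene (DEG) had to pass both a p of 0.05 before adjustment (edgeR) and an absolute log2FC of 1, the thresholds of the study's results section. None of the 10 genes (0 of 10) was a DEG, where 3.11% of all genes tested were. The log2FC was below 0 for 9 of the 10, all but Ucma, as it was for 50.8% of all genes, and the median log2FC was -0.52 against -0.01 over all genes tested. Before adjustment, edgeR gave a p under 0.05 for 1 of the 10, Sox9, where 16.4% of all genes tested had one and 8.28% had one with lower levels in OVX. After adjustment edgeR left 0. DESeq2 gave 2, and also 0 after adjustment. Only Matn1 had groups that did not overlap (1 of 10), which 23.3% of all genes tested showed. In bulk tissue, fewer chondrocytes and less RNA per chondrocyte cannot be told apart. Some markers of other cell types also differed between these groups, to unlike degrees. The 5 adipocyte markers had a median log2FC of 1.12 with 3 DEGs, and summed to 359 to 449 FPKM in Sham and 526 to 700 in OVX. The 8 osteoblast and osteocyte markers had a median log2FC of 0.38 with 1 DEG, and summed to 1196, 1666 and 2760 FPKM in Sham and 2621, 4401 and 3795 in OVX. The 7 muscle markers had a median log2FC of -1.49, with 0 DEGs and 0 with a p under 0.05 before adjustment (edgeR). The lists for tendon and ligament, synovium and fibroblasts, erythroid cells, neutrophils and osteoclasts held 0 DEGs. Their median log2FC lay between -0.32 (tendon and ligament) and 0.41 (osteoclasts). The part of these other cell types in the values below was not tested.

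Sox9 had 3.09, 1.5 and 2.03 FPKM in Sham replicates 1, 2 and 3 and 1.03, 1.44 and 1.75 in OVX. Each OVX library except replicate 3 lay below all Sham libraries, and OVX replicate 3 lay between Sham replicates 2 and 3. Its log2FC was -0.67 (SE 0.295, unadjusted p = 0.0487, adjusted p = 0.301, edgeR), below the fold threshold of 1 but past the threshold of 0.58 in the study's methods section, which 6.96% of all genes met. When a library was left out, the log2FC ranged from -0.87 to -0.37, with an unadjusted p under 0.05 in 2 of 9 cases (edgeR), those without Sham replicate 2 and without OVX replicate 3. The unadjusted p was also under 0.05 with DESeq2 (0.0271) and in edgeR with RLE scaling (0.0492) or no filter (0.0417). It was over 0.05 in edgeR with library totals (0.0565), a minimum count of 30 (0.0549), the 2 groups alone (0.0694) and the replicate block (0.0765). Limma gave 0.0671 on log2(FPKM + 1) and 0.0715 on log2(FPKM + 0.1). The exact permutation test over the libraries gave p = 0.2, where 3 against 3 cannot go below 0.1.

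The aggregate genes Acan and Hapln1 showed broad overlap between the groups. Acan had 34.7, 14.7 and 36.6 FPKM in Sham and 6.24, 26.4 and 32.6 in OVX, a log2FC of -0.42 (SE 0.555, adjusted p = 0.712, edgeR). Without OVX replicate 1, the lowest library, the log2FC of Acan was 0.02. Hapln1 had 24.4, 9.56 and 39.2 FPKM in Sham and 3.26, 19.1 and 27.0 in OVX, a log2FC of -0.59 (SE 0.729, adjusted p = 0.692, edgeR), which was -0.055 without Sham replicate 3, -0.10 without OVX replicate 1 and -1.16 without OVX replicate 3. In both genes, the spread within either group exceeded the distance between the group means.

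Among the adaptors, Matn1 had the largest fold difference on the smallest counts. Matn1 (matrilin 1) had 160, 41 and 38 counts in Sham and 24, 5 and 35 in OVX. All OVX libraries lay below all Sham libraries, with OVX replicate 3 close to Sham replicate 3. Its log2FC was -1.94 (SE 0.892, unadjusted p = 0.0567, adjusted p = 0.316, edgeR). This came to -0.98 without Sham replicate 1. It passed the thresholds without Sham replicate 3 (-2.27), without OVX replicate 3 (-2.49), without OVX-AS-IV-High replicate 3 (-1.94) and with DESeq2 (-1.95).

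Matn3 (matrilin 3) had 4.16, 2.11 and 13.4 FPKM in Sham and 0.694, 2.44 and 5.12 in OVX. OVX replicate 1 was the lowest library and Sham replicate 3 the highest, and the other libraries of the groups overlapped. The log2FC was -1.27 (SE 0.767, adjusted p = 0.413, edgeR), -0.20 without Sham replicate 3, and -2.10 and past the thresholds without OVX replicate 3. Comp had 171, 145 and 131 FPKM in Sham and 111, 139 and 84.1 in OVX, a log2FC of -0.44 (SE 0.263, adjusted p = 0.406, edgeR). Only OVX replicate 2 reached the range of the Sham libraries of Comp.

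The chondrocyte genes Cnmd, Ucma and Epyc did not separate the groups. Cnmd had 23.4, 5.83 and 39.7 FPKM in Sham and 1.73, 24.9 and 29.5 in OVX, a log2FC of -0.32 (SE 0.950, adjusted p = 0.884, edgeR). The OVX group thus held both the lowest Cnmd value and values above Sham replicate 1. Ucma was the only gene of the 10 with a log2FC above 0 (0.18, SE 0.568), with 25.4, 9.94 and 23.3 FPKM in Sham and 8.27, 41.5 and 17.8 in OVX. Its log2FC was -0.59 without OVX replicate 2 and -0.12 without Sham replicate 2. Epyc had 7, 6 and 69 counts in Sham and 4, 15 and 56 in OVX, and its log2FC of -0.19 (SE 1.26) became 1.85 without Sham replicate 3, 0.31 without OVX replicate 1 and 0.08 without OVX replicate 2.

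Prg4 had 372, 129 and 50.1 FPKM in Sham and 93.5, 79.8 and 58.0 in OVX. Sham replicate 1 stood far above all other libraries, whereas Sham replicate 3 lay below all OVX libraries. The log2FC was -1.27 (SE 0.702, adjusted p = 0.380, edgeR), -0.27 without Sham replicate 1, and -1.71 and past the thresholds without Sham replicate 3.

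**Figure D2:**
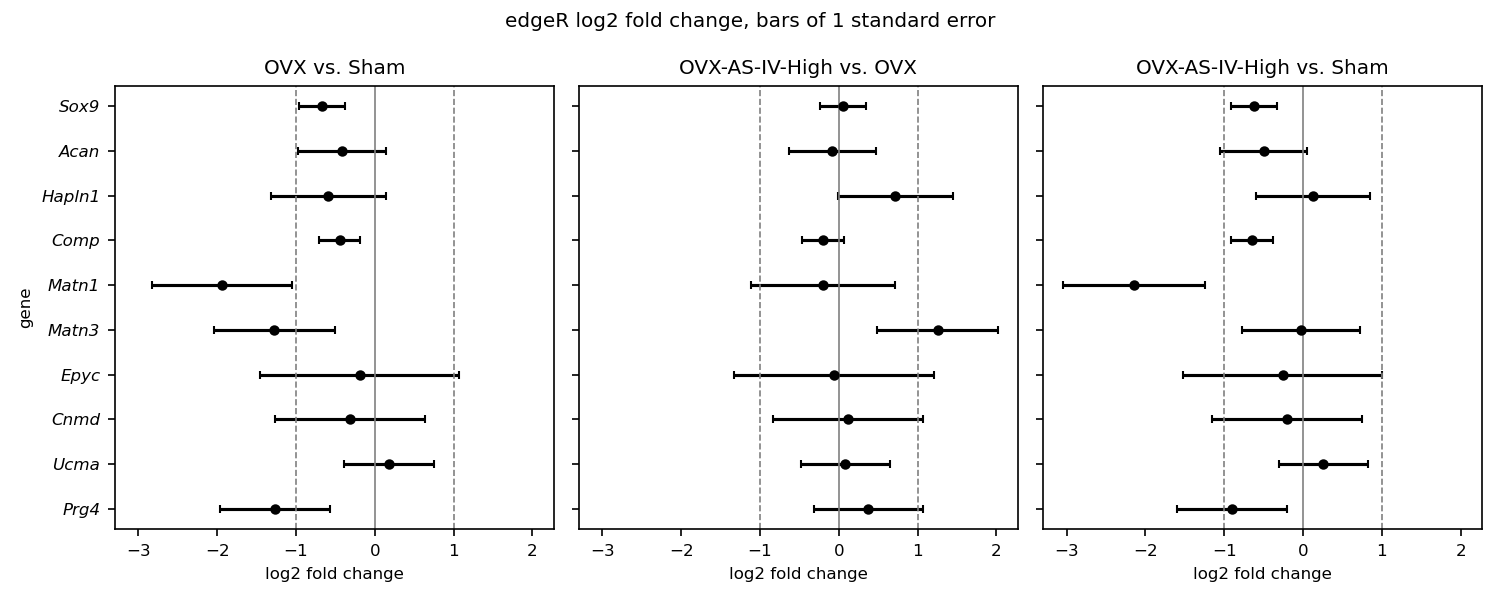
log2 fold change from edgeR for each gene in OVX vs. Sham, OVX-AS-IV-High vs. OVX and OVX-AS-IV-High vs. Sham, with bars of 1 standard error, a solid line at 0 and dashed lines at an absolute log2FC of 1. Matn1 lies farthest from 0 at -1.94 and -2.14 against Sham, and the bars of Epyc, Cnmd and Matn1 are the longest.

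To assess the effect of AS-IV after ovariectomy, OVX-AS-IV-High was compared with OVX. Of the 10 genes, 0 were DEGs, against 0.83% of all genes tested. None (0 of 10) had a p under 0.05 before adjustment in edgeR, where 6.45% of all genes did, and DESeq2 and limma on log2(FPKM + 1) also gave 0. With the replicate block, edgeR gave 1 of 10, Matn3, against 7.76% of all genes, and made it a DEG, against 0.907%. At the lower fold threshold of 0.58 the count was still 0, against 2.19%. The log2FC was above 0 in 6 genes and below 0 in 4, where 53.3% of all genes lay below 0, with a median of 0.07 against -0.02 over all genes tested. The groups overlapped in all 10, whereas 12.7% of all genes had groups apart. This comparison shares its OVX libraries with OVX vs. Sham.

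Matn3 had the largest difference. It had 3.87, 8.78 and 6.66 FPKM in OVX-AS-IV-High against 0.694, 2.44 and 5.12 in OVX, and only OVX replicate 3 reached into the range of the treated libraries. Its log2FC was 1.25 (SE 0.767, unadjusted p = 0.136, adjusted p = 0.887, edgeR). With the replicate block the log2FC was 1.61 (SE 0.558, unadjusted p = 0.0206, adjusted p = 0.551, edgeR), past the DEG thresholds. The block treats libraries of the same replicate number as paired, which the sources used here do not state. DEGs higher with AS-IV made up 0.527% of all genes tested with the block and 0.456% without it. Matn3 also passed the thresholds without OVX replicate 3 (2.08), and its log2FC was 0.79 without OVX replicate 1.

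Hapln1 had 13.3, 43.4 and 22.7 FPKM in OVX-AS-IV-High, a log2FC of 0.71 (SE 0.730, adjusted p = 0.945, edgeR) against OVX, and 0.16 without OVX-AS-IV-High replicate 2. Acan, with which link protein forms aggregates, had 12.0, 25.7 and 22.8 FPKM and a log2FC of -0.08 (SE 0.555). The values of Acan in the treated libraries all lay within the range of OVX. Sox9 had 1.65, 1.43 and 1.18 FPKM, a log2FC of 0.05 (SE 0.295, adjusted p = 0.995, edgeR).

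Comp had 65.5, 136 and 81.5 FPKM in OVX-AS-IV-High, a log2FC of -0.20 (SE 0.263) that was -0.0057 without OVX-AS-IV-High replicate 1 and -0.56 without replicate 2 (unadjusted p = 0.0263, adjusted p = 0.993, edgeR). Matn1 had 33, 19 and 3 counts, a log2FC of -0.20 (SE 0.910). The 3 counts of Matn1 in OVX-AS-IV-High replicate 3 and the single count of Epyc in replicate 1 are at or under a floor of 3 counts. These levels are therefore uncertain. Cnmd had 5.26, 26.6 and 27.9 FPKM (log2FC 0.12, SE 0.950) and Ucma 11.8, 30.2 and 27.6 (log2FC 0.08, SE 0.567). In both genes OVX-AS-IV-High replicate 1 was the low library, as OVX replicate 1 was in its group. Epyc had 1, 49 and 21 counts (log2FC -0.07, SE 1.27). Prg4 had 185, 58.5 and 46.2 FPKM, with a log2FC of 0.37 (SE 0.692) that became -0.53 without OVX-AS-IV-High replicate 1. For Sox9, Acan, Matn1, Epyc, Cnmd and Ucma too, leaving out a single library turned the sign.

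OVX-AS-IV-High was also compared with Sham, with which both other comparisons share libraries. The log2FC was below 0 in 8 of the 10 genes, against 51.6% of all genes tested, with a median of -0.38 against -0.01. In this comparison 3 of the 5 adipocyte markers were DEGs (median log2FC 1.03), whereas the tendon and ligament markers had a median log2FC of -0.98 and the muscle markers of -1.21, with 0 DEGs in either list. Their part in the values of Comp, Matn1 and Prg4 was not tested. Before adjustment, edgeR gave a p under 0.05 for 2 of the 10, both lower in the treated rats, where 17.6% of all genes tested had one and 8.48% had one with lower levels. After adjustment edgeR left 0, and DESeq2 gave 3 before and 0 after adjustment. Of the 10 genes, 1 was a DEG, against 3.15% of all genes tested, and it was Matn1, with a log2FC of -2.14 (SE 0.902, unadjusted p = 0.0408, adjusted p = 0.266, edgeR). Its 33, 19 and 3 counts lay below the lowest Sham library at 38, and Matn1 was the only gene of the 10 with groups apart, against 19.9% of all genes tested. Matn1 was no longer a DEG without Sham replicate 1 (-1.17), without OVX replicate 1 (-2.14), without OVX-AS-IV-High replicate 2 (-2.16) or without OVX-AS-IV-High replicate 3 (-1.64). Comp also had an unadjusted p under 0.05 (log2FC -0.65, SE 0.264, unadjusted p = 0.0356, adjusted p = 0.254, edgeR), and was past 0.58, as 6.92% of all genes were. Its p was no longer under 0.05 without Sham replicate 1 (-0.55), Sham replicate 2 (-0.64), OVX-AS-IV-High replicate 1 (-0.45) or OVX-AS-IV-High replicate 3 (-0.54). Comp passed the fold threshold of 1 without OVX-AS-IV-High replicate 2 (-1.01). Prg4 had a log2FC of -0.90 (SE 0.696, adjusted p = 0.526, edgeR), which was -1.80 and past the thresholds without OVX-AS-IV-High replicate 1. Sox9 had a log2FC of -0.62 (SE 0.295, unadjusted p = 0.0642, adjusted p = 0.312, edgeR), close to its value in OVX vs. Sham.

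The variation of these genes lay mainly between libraries of the same group. The median SD of log2 CPM within groups was 1.12 over the 10 genes and 0.235 over all 16874 genes tested. Among genes with a mean log2 CPM of at least 0, it was 0.203. By this SD, 8 of the 10 genes lay above the 90th percentile of all genes, led by Epyc (1.84) and Cnmd (1.73), and the exceptions were Sox9 (0.393, percentile 70.9) and Comp (0.380, percentile 69.7). Within OVX alone, Cnmd varied 17.0-fold, Hapln1 8.30-fold and Matn3 7.38-fold between libraries.

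The share of the variance of log2 CPM that lay between the 3 groups had a median of 16.5% over the 10 genes and of 32.9% over all genes tested. It was highest for Comp (47.2%), Matn1 (44.8%) and Sox9 (44.6%). It was lowest for Epyc (0.497%), Ucma (2.79%) and Cnmd (4.57%). The genes with the least spread between libraries, Sox9 and Comp, were thus also among those with the largest share between groups.

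**Figure D3:**
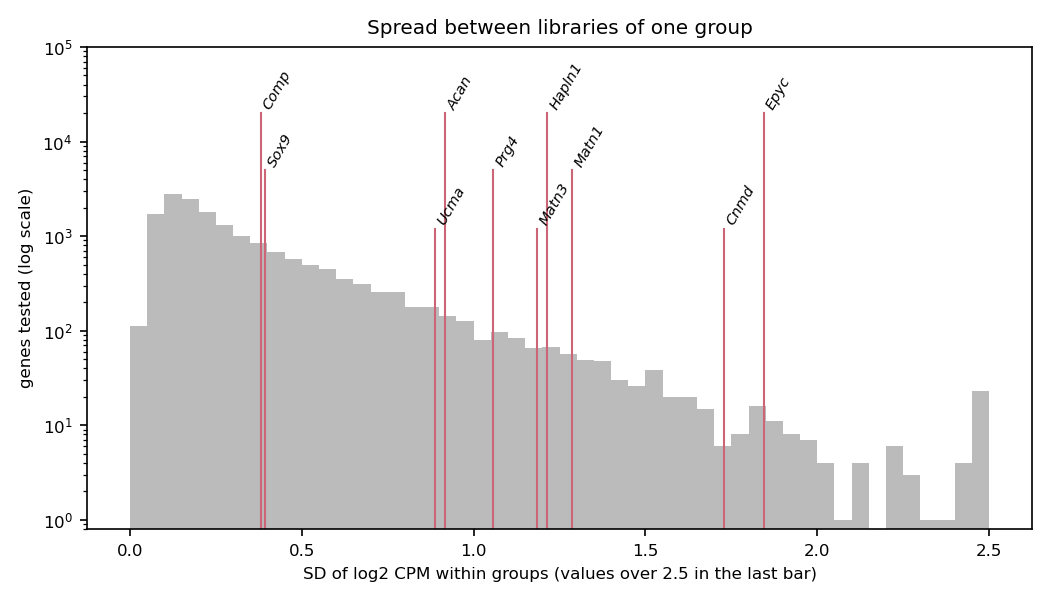
Histogram of the SD of log2 CPM within groups for all 16874 genes tested, on a log count axis, with red lines at the 10 genes. All but Sox9 and Comp lie in the upper tail, from 0.888 for Ucma to 1.84 for Epyc, against a median of 0.235.

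The lowest libraries were the same for some of the 10 genes and not for others. Sham replicate 2, OVX replicate 1 and OVX-AS-IV-High replicate 1 were the 3 lowest of the 9 libraries for 5 genes, namely Acan, Hapln1, Epyc, Cnmd and Ucma. Sox9, Comp, Matn1, Matn3 and Prg4 each had another set of 3 lowest libraries. OVX replicate 1 had the lowest value for 6 genes and lay below the mean log2 CPM in 10 of 10, with a median difference of -1.36 from each gene's mean. It lay close to the mean for Comp (-0.043), Matn1 (-0.054) and Prg4 (-0.009). Sham replicate 3 had the highest value for 4 genes (Acan, Matn3, Epyc and Cnmd) and a median difference of 0.72. Sham replicate 1 had the highest for another 4 (Sox9, Comp, Matn1 and Prg4) and a median difference of 0.62. Each group thus held a library poor in aggregate and chondrocyte transcripts beside libraries rich in them.

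Prg4 was among the genes that did not follow this order. The 4 libraries with the most Prg4 were Sham replicate 1 (372 FPKM), OVX-AS-IV-High replicate 1 (185), Sham replicate 2 (129) and OVX replicate 1 (93.5). These were also the 4 libraries with the highest sums of skeletal muscle markers, at 3767, 1884, 2587 and 1250 FPKM in that order, and with the highest sums of tendon and ligament markers, at 77.3, 52.6, 77.8 and 108 FPKM. In the other 5 libraries Prg4 lay between 46.2 and 79.8 FPKM. Of these 4 libraries, Sham replicate 1 alone was rich in Acan (34.7 FPKM), and the other 3 were the lowest for Acan. The part of muscle and tendon in these levels was not tested.

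**Figure D4:**
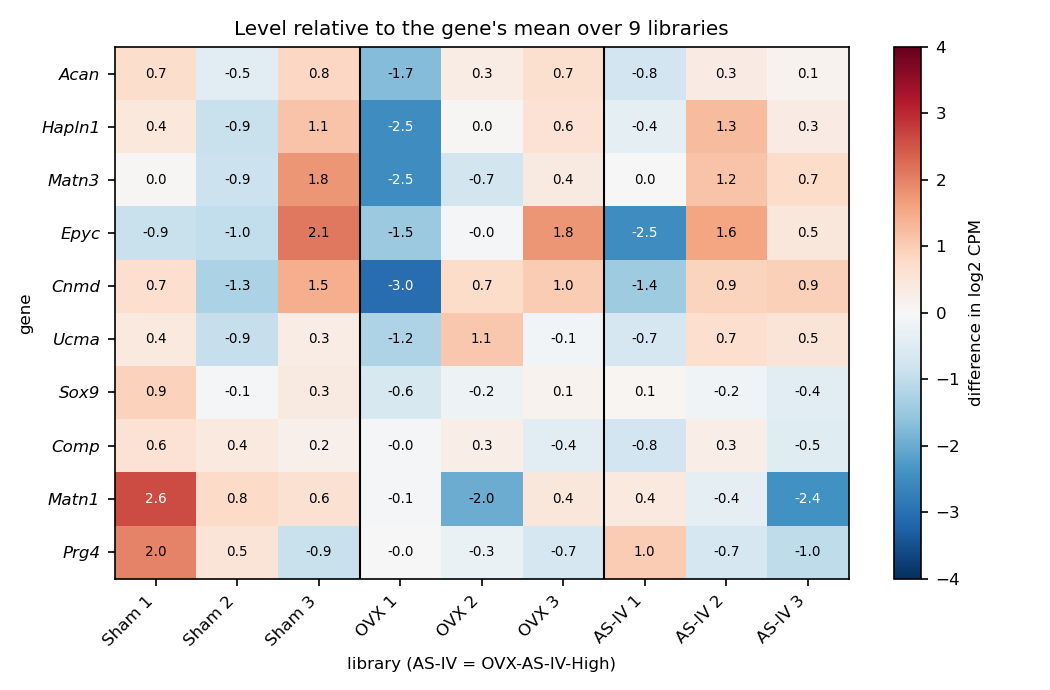
Difference of log2 CPM from each gene's mean over the 9 libraries, with genes in rows, libraries in columns and black lines between the groups. The columns of OVX replicate 1, Sham replicate 2 and OVX-AS-IV-High replicate 1 are blue for Acan, Hapln1, Epyc, Cnmd and Ucma (down to -3.05 for Cnmd in OVX replicate 1), while Prg4 is red in Sham replicate 1 (1.98) and OVX-AS-IV-High replicate 1 (1.03).

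Since Acan, Hapln1, Epyc, Cnmd and Ucma were low in the same libraries, each gene was also expressed relative to Acan in the same library. This step was chosen after the levels were seen. This gave 27 comparisons in 9 genes. In OVX vs. Sham, 0 of the 9 genes had ratios that lay apart, as 2.13% of 16700 genes did. In OVX-AS-IV-High vs. OVX, 2 of the 9 did, Hapln1 and Matn3, against 0.443% of all genes. In OVX-AS-IV-High vs. Sham, only Ucma did (1 of 9), against 4.18%. Without the ratio, 23.3%, 12.7% and 19.9% of all genes tested had groups apart in these 3 comparisons. Dividing by Acan, which varied 5.23-fold within OVX alone, adds its spread to genes that do not follow it. The shares of ratios apart are therefore no yardstick for genes that follow Acan, and no enrichment can be read from them.

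The ratio of Hapln1 to Acan was 0.704, 0.651 and 1.07 in Sham and 0.522, 0.725 and 0.828 in OVX. It was 1.11, 1.69 and 0.998 in the OVX-AS-IV-High libraries. All treated libraries thus had more link protein transcript per aggrecan transcript than any OVX library, by 0.86 on the log2 scale (exact permutation test, p = 0.1, the smallest possible). Sham replicate 3 lay within the range of the treated libraries. The ratio of Matn3 to Acan was 0.120, 0.143 and 0.366 in Sham and 0.111, 0.0926 and 0.157 in OVX. With AS-IV it was 0.324, 0.342 and 0.293, or 1.44 above OVX on the log2 scale (exact permutation test, p = 0.1, the smallest possible), and Sham replicate 3 lay above all treated libraries. With 3 libraries against 3, this permutation test cannot reach 0.05, and no other test of the ratios was run.

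Ucma was apart in another comparison. Its ratio to Acan was 0.732, 0.677 and 0.635 for Sham, against 1.33, 1.58 and 0.545 for OVX. It was 0.987, 1.18 and 1.21 with AS-IV, so that all treated libraries lay above all Sham libraries (0.72 on the log2 scale, exact permutation test, p = 0.1). The ratio of Cnmd to Acan spanned 4.42-fold over the 9 libraries, and that of Sox9 3.17-fold. Comp (6.92-fold), Prg4 (11.3-fold), Epyc (23.5-fold) and Matn1 (35.5-fold) varied more relative to Acan. For Comp, the ratio was highest in OVX replicate 1 (17.8), in which Acan was lowest.

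**Figure D5:**
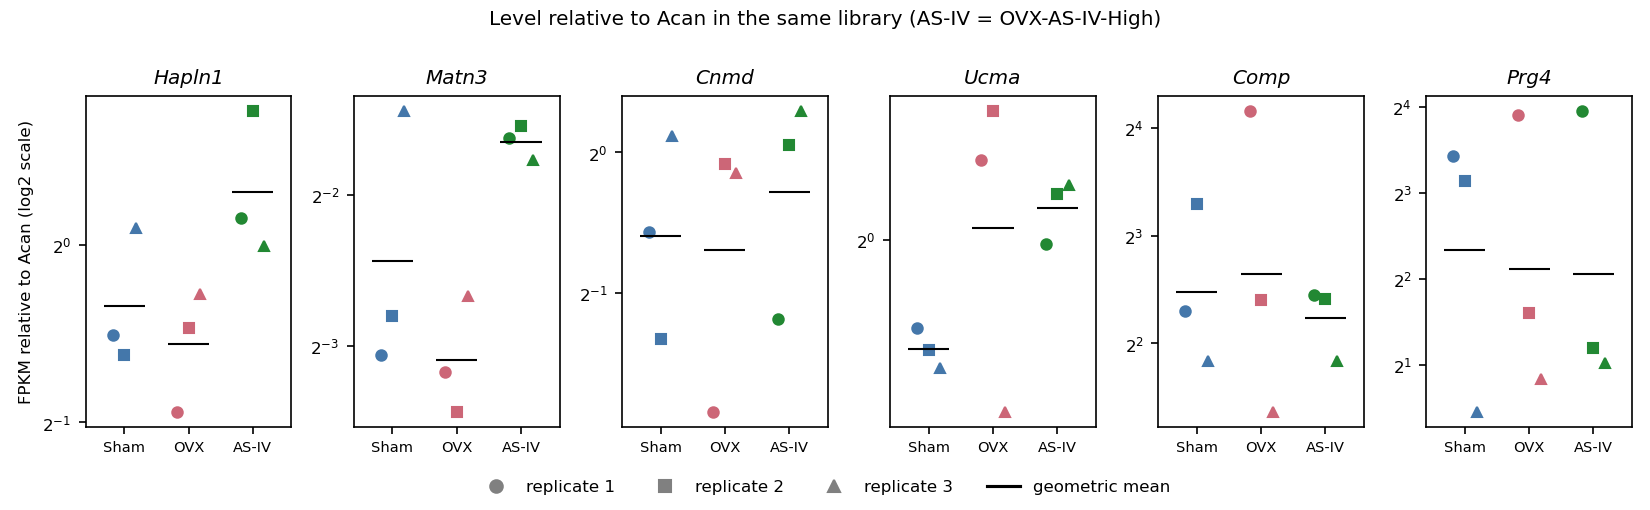
FPKM of Hapln1, Matn3, Cnmd, Ucma, Comp and Prg4 divided by that of Acan in the same library, on log2 axes, with a symbol for each replicate and a line at the geometric mean of a group. For Hapln1 (0.998 to 1.69 against 0.522 to 0.828) and Matn3 (0.293 to 0.342 against 0.0926 to 0.157), the OVX-AS-IV-High libraries lie above all OVX libraries.

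Other genes of cartilage were taken from 4 lists with 46 genes, of which 45 passed the filter on low counts. In OVX vs. Sham, 30 had a log2FC below 0 and 15 above 0, with a median of -0.13 against -0.01 over all genes tested. Of the 45, 1 was a DEG, against 3.11% of all genes tested, and 5 had a p under 0.05 before adjustment, against 16.4%. In OVX-AS-IV-High vs. OVX, 22 lay below 0 and 23 above, with a median of 0.01, and 0 were DEGs or had a p under 0.05 before adjustment, against 0.83% and 6.45% of all genes. In OVX-AS-IV-High vs. Sham, 29 lay below 0, 1 was a DEG, against 3.15% of all genes, and 6 had a p under 0.05 before adjustment, against 17.6%. After adjustment over all genes, edgeR left 0 of the 45 in each comparison without the replicate block, and 1 with it in OVX-AS-IV-High vs. Sham. DESeq2, which gave all 46 a fold change, left 3, 0 and 2, where over all genes it left 790, 27 and 951.

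The 8 collagens of cartilage contained no DEG (0 of 8) in any comparison with all libraries. In OVX vs. Sham, Col2a1, Col10a1 and Col27a1 were DEGs, lower in OVX, without OVX replicate 3, and Col27a1 also without Sham replicate 2. Col2a1 had 287 ± 163 FPKM in Sham, 154 ± 126 after ovariectomy and 177 ± 57.2 with AS-IV (SD, n = 3), with a log2FC of -0.91 (SE 0.662) in OVX vs. Sham. Its lowest library was OVX replicate 1, at 36.2 FPKM, and its highest was Sham replicate 3, at 453. Col11a2, which forms part of the same fibrils, had 35.4, 38.5 and 31.4 FPKM as the means of Sham, of OVX and of OVX-AS-IV-High. Col10a1 had 34.7, 22.7 and 21.9 FPKM as group means, and OVX replicate 1 was again the lowest library at 3.04.

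The 10 chondrocyte transcription factors and signals contained no DEG either (0 of 10). Pth1r, the receptor for parathyroid hormone and PTHrP, had group means of 17.7, 17.9 and 15.6 FPKM for Sham, for OVX and for OVX-AS-IV-High. Wwp2, a ubiquitin ligase gene whose intron holds a microRNA of cartilage, had 17.5, 14.6 and 15.2, and Fgfr3, a receptor that restrains growth plate chondrocytes, had 8.84, 9.56 and 9.34. All 3 differed between groups by less than the thresholds.

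Of the other cartilage matrix and chondrocyte proteins, 15 of 16 were tested and 12 had a log2FC below 0 in OVX vs. Sham. Cilp2, a cartilage intermediate layer protein gene, was the only DEG of this list, in OVX-AS-IV-High vs. Sham (log2FC -1.10, SE 0.287, unadjusted p = 0.00378, adjusted p = 0.125, edgeR). Cilp2 was also lower in OVX vs. Sham (log2FC -0.87, SE 0.286, unadjusted p = 0.0136, adjusted p = 0.205, edgeR). In OVX-AS-IV-High vs. OVX its log2FC was -0.23 (SE 0.284, unadjusted p = 0.436, edgeR). Its level was 23.2 ± 4.51 FPKM in Sham, 13.0 ± 5.16 after ovariectomy and 10.8 ± 1.78 with AS-IV (SD, n = 3). Cilp2 was no longer a DEG without Sham replicate 1 (-0.99) or without OVX-AS-IV-High replicate 3 (-0.96). The most abundant genes of the list were Chad, Cytl1 and Clec3a. Chad (chondroadherin) had group means of 252, 170 and 165 FPKM, with a log2FC of -0.59 (SE 0.275, adjusted p = 0.321, edgeR) in OVX vs. Sham. Cytl1, a secreted chondrocyte protein, had 158 ± 94.6, 189 ± 209 and 121 ± 24.3 FPKM, and Clec3a, a cartilage lectin, 149, 115 and 141 FPKM as group means.

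Of the 12 genes for proteoglycan assembly, sulfation and turnover, 8 had a log2FC above 0 in OVX vs. Sham. Adamts5, an aggrecan-cleaving protease, was the DEG, higher in OVX like 1.08% of all genes tested (log2FC 1.04, SE 0.349, unadjusted p = 0.0146, adjusted p = 0.206, edgeR), with 0.989 FPKM as the mean of Sham, 2.08 of OVX and 1.87 of OVX-AS-IV-High. It was not a DEG without Sham replicate 1 (0.81) or without OVX replicate 2 (0.98). Ugdh, which makes a sugar precursor of the glycosaminoglycan chains, had a log2FC of 0.50 (SE 0.116, unadjusted p = 0.00167, adjusted p = 0.143, edgeR). Mmp13, the collagenase of hypertrophic cartilage and bone, was the most abundant of the list, with group means of 256, 338 and 292 FPKM and no significant difference. Chsy1, a chondroitin synthase, had group means of 11.5, 13.4 and 14.2 FPKM.

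The genes most like the 10 in their course over the 9 libraries were found from the Pearson correlation of log2 CPM with the mean of the 10 standardized genes. They were Col27a1 (r = 0.95, rho = 0.95), Capn6 (r = 0.95), LOC102547955 (r = 0.95), Susd5 (r = 0.95) and Kcna6 (r = 0.94), all non-members. Without OVX replicate 1 and Sham replicate 1, the libraries farthest from the median, their r lay between 0.83 (Susd5) and 0.90 (LOC102547955) over 7 libraries. These genes were chosen for their likeness among 16864, and no p is given. Of the 45 listed genes, 7 were among the first 20 in this order, namely Col27a1, Sox5, Snorc, Col2a1, Col9a2, Scrg1 and Col10a1. Among the first 100 were 12 of the 45. Others of the 45 did not follow the 10 genes. The r was below 0 for Fgfr3, Chsy1, Ugdh, Adamts5, Sox6, Adamts4 and Csgalnact1, down to -0.70 for Csgalnact1. All points share the same libraries, with their depth and tissue make-up.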

How the data were processed

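RNA-seq of poly(A) RNA, with strand-specific libraries, was made by the authors from bone of 3 Sham, 3 OVX and 3 OVX-AS-IV-High rats, which the study calls independent biological replicates. Reads were aligned by the authors (Tophat, Bowtie2) and genes quantified by eXpress, on build mRatBN7.2 according to the submitters' processing notes. The deposited count table holds whole numbers, and how the estimates became whole is not given in the sources used here. The deposited FPKM table holds the authors' values, scaled to gene length and library size. Totals were 34874880 to 37298250 counts per library, and intervals and SDs cover these libraries only.

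Counts were tested with edgeR 4.0.16 in R 4.3.3 (TMM, quasi-likelihood test, all 9 libraries, minimum count of 10 in filterByExpr), with Benjamini-Hochberg adjustment over 16874 genes. Biological variation had a common coefficient of 0.256. CPM for the spread had a prior count of 2. On simulated counts of 16646 genes for OVX vs. Sham, edgeR made DEGs of 177 of 198 genes changed 3-fold (89.4%) and of 213 unchanged genes. The changed genes were drawn at random from all genes. The median SD of log2 CPM within groups was 0.235 over all genes tested and 1.12 over the 10. The 89.4% thus does not give the power for the 10 genes. DESeq2 1.42.0, limma 3.58.1 on log2(FPKM + 1) and log2(FPKM + 0.1), other scalings and filters, a replicate block and leaving out each library were the alternatives.

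Replicate numbers come from the labels. Deviations of same-numbered libraries from their group means correlated at 0.310, 0.158 and 0.130 in OVX-AS-IV-High and OVX, all over 0.1. OVX-AS-IV-High replicate 3 and OVX replicate 2, of unlike number, correlated at 0.178, and the other pairs of unlike number lay below 0. These correlations do not establish that the numbers pair the libraries, and the study calls the replicates independent. The values given are from the fit without the replicate block, as in the study, and a blocked value is given where it changed a DEG call. The other comparisons had a same-numbered pair below 0. Named genes were the 10 genes, listed cartilage genes that were DEGs in any comparison or among the 3 of each list with the highest mean FPKM, and the 5 non-members with the highest correlation. The listed genes among the first 20 of that order, and those with an r below 0, were named after their values were seen. The 10 genes and the lists were chosen with earlier results of these data known. The ratio to Acan and the motifs ACAAAG and TATAA were added after the data were seen.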

Additional observations from a re-analysis of the deposited data

How the results depend on the processing

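Of 540 log2FC values of the 10 genes under the alternatives, 475 kept their direction and their side of the DEG thresholds, 14 passed the thresholds only there, 5 no longer passed and 46 turned sign. The alternatives reuse the same libraries, so the 540 values are not independent checks. Leaving out a library of the group not compared hardly moved the log2FC, although it could move the p. For Acan in OVX vs. Sham it was -0.417 without OVX-AS-IV-High replicate 1, against -0.418. In OVX vs. Sham, the count of DEGs among the 10 was 0, and 1 with DESeq2, without a filter, with limma on log2(FPKM + 0.1) and in a fit of the 2 groups (each Matn1), 1 with the replicate block (Matn3), 1 at an absolute log2FC over 0.58 (Sox9), and 0 to 2 when a library was left out. In OVX-AS-IV-High vs. OVX it was 0, 1 with the replicate block (Matn3), and 0 to 1 when a library was left out. In OVX-AS-IV-High vs. Sham it was 1, 0 with limma on log2(FPKM + 1), 2 at 0.58 (Comp and Matn1), and 0 to 2 when a library was left out. Among the cartilage lists, the counts were 1, 0 and 1. With limma on log2(FPKM + 1) the first was 0, at 0.58 the first and last were 3, without a filter the second was 1 (Crtac1), and leaving out a library gave 0 to 5, 0 to 1 and 0 to 3. The 5 (Adamts5, Col10a1, Col27a1, Col2a1 and Mia) came without OVX replicate 3.

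Signs turned with limma for Epyc in OVX vs. Sham (0.014 with 0.1 added), for Acan under AS-IV against OVX (0.10 with 1 and 0.12 with 0.1 added) and for Matn3 in OVX-AS-IV-High vs. Sham (0.22 and 0.30). With the replicate block they turned for Ucma in OVX vs. Sham (-0.12), for Acan (0.044) and Epyc (0.18) under AS-IV against OVX, and for Hapln1 (-0.00035) and Matn3 (0.26) in OVX-AS-IV-High vs. Sham. The block changed no other sign and, apart from Matn3, no DEG call among the 10. In OVX vs. Sham it gave Matn3 a log2FC of -1.35 (SE 0.559, unadjusted p = 0.0425, adjusted p = 0.213, edgeR). There the unadjusted p of Comp was 0.0452 with the block and 0.124 without it (edgeR). That of Sox9 was 0.0765 with the block and 0.0487 without it (edgeR). When a library was left out, the log2FC in OVX vs. Sham ranged from -0.85 to 0.023 for Acan, -1.59 to 1.85 for Epyc, -0.83 to 0.35 for Cnmd and -0.59 to 0.57 for Ucma. In OVX-AS-IV-High vs. OVX it ranged from -0.13 to 0.25 for Sox9, -0.52 to 0.35 for Acan, -0.94 to 0.35 for Matn1, -1.15 to 1.34 for Epyc, -0.42 to 0.63 for Cnmd, -0.31 to 0.85 for Ucma and -0.53 to 0.71 for Prg4. In OVX-AS-IV-High vs. Sham it ranged from -0.43 to 0.66 for Hapln1, -0.43 to 1.06 for Matn3, -1.34 to 1.79 for Epyc, -0.64 to 0.47 for Cnmd, -0.040 to 0.57 for Ucma and -1.80 to 0.11 for Prg4. The cause of these changes was not tested.

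Over all genes, the 525, 140 and 531 DEGs of the 3 comparisons fell to 75, 13 and 84 with limma on log2(FPKM + 1) and to 315, 80 and 353 on log2(FPKM + 0.1). They were 1174, 369 and 1167 at an absolute log2FC over 0.58. Without a filter the first was 791 and the second 274, and at a minimum count of 30 the second was 89. Leaving out a library gave 387 to 1064, 141 to 219 and 409 to 940. An adjusted p under 0.05 was reached by 0 genes in each comparison with edgeR and by 21, 0 and 58 with the replicate block. In the last comparison 5 reached it without a filter. There limma gave 4 on log2(FPKM + 1) and 5 on log2(FPKM + 0.1). Leaving out a library gave 0 to 21, 0 to 29 and 0 to 141 such genes. The highest came without Sham replicate 3 in the first comparison and without OVX-AS-IV-High replicate 3 in the others. DESeq2 gave 790, 27 and 951. With 3 libraries a group, differences in Matn1 and Epyc rest on few counts.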
